A study of Mus musculus with 10 samples.

Results

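The 8 genes described here, Hmgcs1, Sqle, Idi1, Fdps, Lss, Cyp51, Insig1 and Srebf2, are sterol synthesis genes and targets or partners of the transcription factor SREBP2. They were taken by name from the array annotation, through 20 probes, and are 8 of 27669 genes tested. Each gene is given by its brightest probe, the probe with the highest mean lung signal over 10 arrays, and the values of the other probes of the members are given beside it. Lungs came from female BALB/c mice that were 6 to 8 weeks old on arrival. The smoke group of 5 mice breathed mainstream smoke of 12 reference cigarettes without filters, for 50 minutes, 2 times a day on 5 days a week for 8 weeks, in a whole body chamber. The room air group of 5 mice breathed room air only. No gene was altered in either group, and each array held RNA of 1 mouse lung beside a reference RNA.

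Cells make cholesterol from acetyl units through mevalonate, isoprenoid units, squalene and lanosterol. When membrane sterol is low, SCAP carries SREBP2 from the endoplasmic reticulum to the Golgi, where proteases free the part that enters the nucleus and turns on these genes, and INSIG proteins hold the complex back when sterol is high. In the lung, alveolar type 2 cells use lipid synthesis for surfactant, and alveolar macrophages take up and export surfactant lipid.

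Values are log2 ratios of the red signal over the green signal on the same array, after loess normalisation within that array. A value of 0 is therefore the usual ratio of spots of like brightness on that array, and not equal raw signals. For Hmgcs1 in room air replicate 3, the red signal was 6719 and the green signal 3861, and the value was -0.0021. The labels name a single dye, so the content of the channels was checked with marker genes. For the lung markers Sftpc and Scgb1a1, the log2 red signal exceeded the green signal by 6.39 and 6.72. The Y-linked gene Ddx3y was well above background in green on 10 of 10 arrays and in red on 2 of 10, and the mice were female. Red was therefore read as the lung and green as the reference. A difference is the smoke mean minus the room air mean, with its standard error (SE), and a gene was called when its p from limma, adjusted over all probes, was under 0.05.

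Of the 8 members, 0 were called, 0 higher and 0 lower, and at an unadjusted p under 0.05 limma gave 2, Srebf2 and Insig1, beside 19.9% of all genes tested and 30.0% of those well above background, so 2 of 8 is near those shares. Over all genes tested by their brightest probe, 8.22% were called, 4.95% higher and 3.27% lower with smoke. Among the 17153 genes well above background in red on all 10 arrays, as all 8 members were, 12.9% were called, 7.76% higher and 5.15% lower. The median difference of the members was 0.03, beside -0.0042 over all genes tested, with 3 members below 0. The sign of this median was not stable: it was -0.068 with median centring in place of loess, with 7 members below 0. The groups overlapped for all 8 members, while smoke lay wholly below room air for 3.27% of all genes and 4.91% of those well above background, and wholly above for 4.62% and 7.10%. The exact Wilcoxon test called 0 members and 0 of all 41173 probes, so its count of 0 says nothing about these genes in particular.

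**Figure D1:**
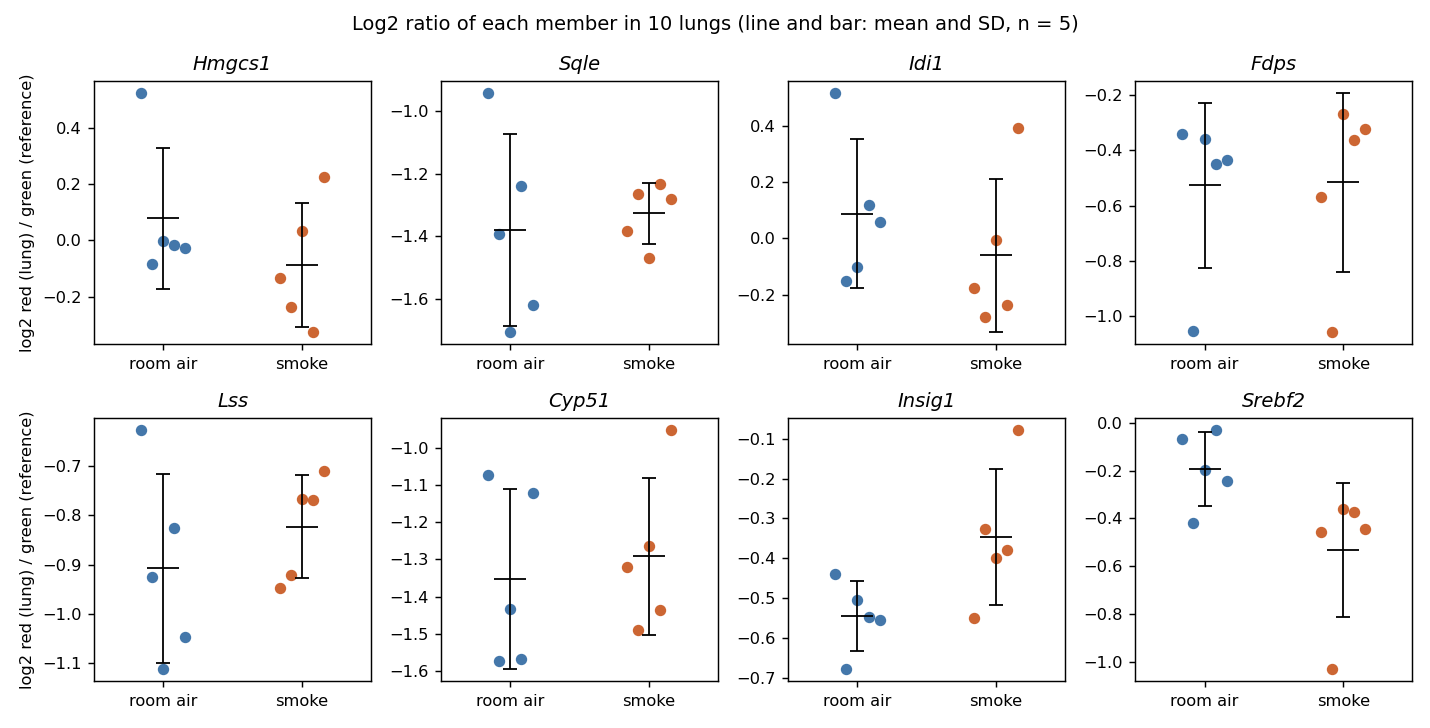
Each point is the log2 ratio of red (lung) over green (reference) of 1 lung for the named gene, with the mean and SD of 5 lungs per group. The groups overlap for all 8 genes, and the vertical axis differs between panels.

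Srebf2 encodes SREBP2 itself. In room air its log2 ratio was -0.07, -0.42, -0.20, -0.03 and -0.24 in replicates 1 to 5, and with smoke -0.46, -1.03, -0.36, -0.37 and -0.44. Of the 5 smoke lungs, 3 lay below the lowest room air lung, replicate 2, and smoke replicate 2 was the lowest of all, so the groups overlapped. The difference was -0.34 (SE 0.13, 95% interval -0.62 to -0.065, n = 5 per group), a fold of 0.789, with an adjusted p of 0.159 from limma. Leaving out 1 lung moved it from -0.40 to -0.22, the latter without smoke replicate 2. Each slide held 1 smoke lung and 1 room air lung with the same replicate number. Within slides 1 to 5 the Srebf2 difference was -0.39, -0.61, -0.16, -0.34 and -0.20, below 0 on 5 of 5. With the slide as a block, the adjusted p from limma was 0.0159, and Srebf2 was the 1 member called. Under the same block 13.8% of all genes tested were called, and 21.6% of those well above background in red on all 10 arrays, so 1 of 8 is no more than those shares. The other Srebf2 probes gave -0.24, -0.31 and -0.012, with adjusted p under the block of 0.157, 0.319 and 0.920, so the blocked call rests on the brightest probe.

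Insig1 encodes the endoplasmic reticulum protein that retains SCAP when sterol is high, and is itself an SREBP target. Its room air values were -0.44, -0.68, -0.50, -0.55 and -0.55, and its smoke values -0.55, -0.33, -0.40, -0.38 and -0.08. Of the smoke lungs, 4 lay above the highest room air lung, and smoke replicate 1 lay within the room air range. The difference was 0.20 (SE 0.081, n = 5 per group), with an adjusted p of 0.211 from limma and 0.184 with the slide as a block. It was 0.090 with median centring in place of loess (adjusted p 0.867), and from 0.13 to 0.25 with 1 lung left out. Its second probe gave 0.18.

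Hmgcs1 makes HMG-CoA, an early intermediate of the mevalonate route. Its room air values were 0.52, -0.08, -0.0021, -0.01 and -0.03, and its smoke values -0.13, -0.24, 0.03, -0.33 and 0.22. The first room air lung stood high above its group, and the groups overlapped. The difference was -0.17 (SE 0.13, n = 5 per group, adjusted p 0.617 from limma), and -0.055 without room air replicate 1. Its dimmer probes gave -0.15 and -0.063. With median centring it was -0.26.

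Idi1 interconverts the isoprenoid units IPP and DMAPP. It read 0.52, -0.15, -0.10, 0.12 and 0.06 in room air and -0.18, -0.28, -0.0037, -0.24 and 0.39 with smoke. Room air replicate 1 and smoke replicate 5 were the highest lungs, and the groups overlapped. The difference was -0.15 (SE 0.15, adjusted p 0.724 from limma, n = 5 per group), and -0.042 without room air replicate 1. It was -0.26 with median centring, and the dimmer Idi1 probe gave -0.11. The main accession of the Idi1 probes was not in the RefSeq table. The files also list the current Idi1 accession for them, but place them on chromosome 2 of an older build, while RefSeq has Idi1 on chromosome 13. Whether they read a near-identical copy was not tested, and the value is uncertain.

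Fdps joins isoprenoid units into farnesyl diphosphate. It ranged from -1.05 to -0.34 in room air and from -1.06 to -0.27 with smoke, and replicate 2 was the lowest lung of both groups. The difference was 0.011 (SE 0.17, adjusted p 0.988 from limma, n = 5 per group), and its dimmer probe gave -0.35 (adjusted p 0.385), of the opposite sign.

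Sqle, Lss and Cyp51 act on squalene and lanosterol: an epoxidase, the cyclase that forms lanosterol, and a demethylase. Sqle ranged from -1.71 to -0.94 in room air and from -1.47 to -1.23 with smoke, so its smoke lungs all lay inside the room air range. Lss ranged from -1.11 to -0.63 in room air and from -0.95 to -0.71 with smoke, again inside the room air range. Cyp51 ranged from -1.57 to -1.07 in room air and from -1.49 to -0.95 with smoke. Their differences were 0.05, 0.08 and 0.06, with adjusted p of 0.909, 0.749 and 0.894 from limma. The 95% intervals ran from -0.22 to 0.33 for Sqle, -0.11 to 0.28 for Lss and -0.22 to 0.34 for Cyp51. With 1 lung left out Lss ran from 0.033 to 0.15. The dimmer probes gave 0.16 and 0.15 for Lss and 0.16 and 0.16 for Cyp51, with adjusted p from 0.401 to 0.629. Sqle had 1 probe.

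On slide 1 the smoke lung was lower than the room air lung for all 8 members, from -0.11 for Insig1 to -0.70 for Idi1. For Sqle, Lss, Cyp51 and Insig1 the smoke lung was higher on the other 4 slides. Without room air replicate 1, 0 members were called, and the member median was 0.09. Smoke lungs lay at 1 place on each slide and room air lungs at the other, so place and group cannot be told apart.

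**Figure D2:**
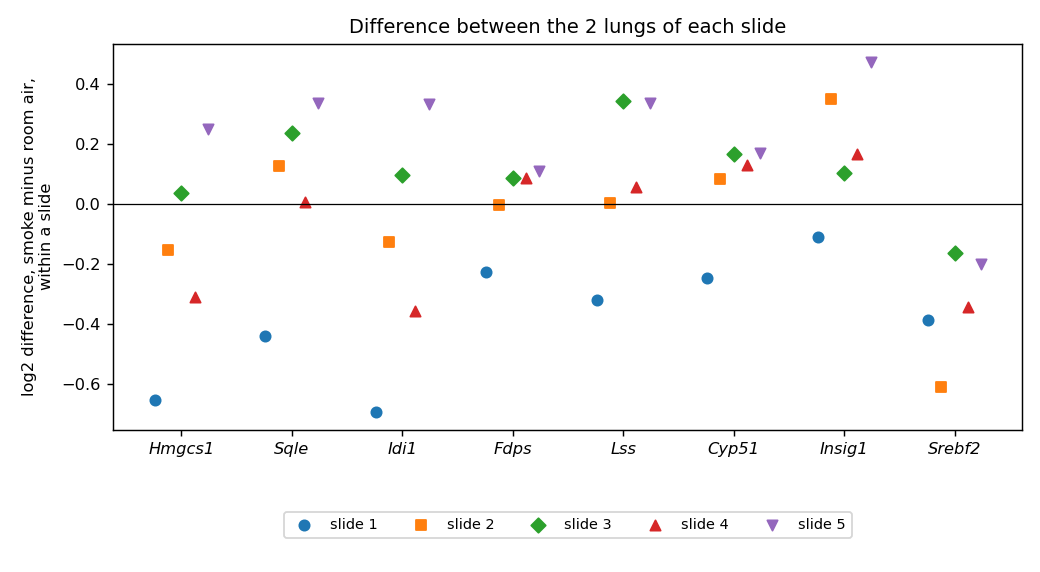
Each point is the log2 difference between the smoke lung and the room air lung of 1 slide, for each member. Slide 1 lies below 0 for all members, and Srebf2 lies below 0 on 5 of 5 slides.

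The red and green channels were also read apart. In red alone, the Srebf2 difference was -0.30 and the Insig1 difference 0.21, with adjusted p of 0.452 and 0.413 from limma. In green alone, the differences of the members ran from -0.07 for Fdps to 0.03 for Cyp51, and all had an adjusted p of 1.00. Over all 41173 probes limma called 2329 in red and 14 in green.

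Pearson correlations between members were also taken over the lungs. Over the 28 pairs of members, Pearson's r over 10 lungs had a median of 0.44 and was above 0 for 26 pairs, from -0.34 for Insig1 with Srebf2 to 0.94 for Hmgcs1 with Idi1. With the group mean taken out, the median was 0.48 and 27 pairs were above 0. The lungs share slides in pairs and a reference, so these values are a description, and the same measure was not taken for other genes. Sqle with Fdps (-0.03) and Sqle with Srebf2 (0.02) were near 0. The mean of the 8 members, each scaled to an SD of 1, was highest in room air replicate 1 at 1.31 and smoke replicate 5 at 1.01, and lowest in smoke replicate 2 at -0.79 and room air replicate 2 at -0.76.

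Among the 5 genes most like this mean by Pearson's r, of 13885 compared over 10 lungs, were Ccn5 (r 0.91), Tsr1 (0.89) and Gadd45a (0.88). With the group mean taken out, the 5 included Gadd45a (0.96), B9d2 (0.95), Pinx1 (0.94) and Zcrb1 (0.92). None of these genes was called between the groups.

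Other genes of the pathway were read from fixed lists, with members included. Beside the counts below, 7.76% of genes well above background in red on all 10 arrays were called higher and 5.15% lower. The lists were chosen with earlier results of these data known, so the counts are a description. From acetyl units to squalene, 1 of 9 genes rose and 0 fell. The gene that rose was Mvd, the decarboxylase that yields IPP, at -0.58, -1.19, -1.24, -1.04 and -1.14 in room air and -0.51, -0.23, -0.36, -0.40 and -0.22 with smoke. All Mvd smoke lungs lay above all room air lungs, with a difference of 0.69 (SE 0.12, adjusted p 0.00371 from limma, n = 5 per group).

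From squalene to cholesterol, 2 of 12 genes rose and 0 fell. Dhcr7, a sterol reductase, rose by 0.48 (SE 0.081, adjusted p 0.00376 from limma), and its dimmer probe also rose, by 0.23. Ebp, a sterol isomerase, rose by 0.28 (SE 0.057, adjusted p 0.0107 from limma). With median centring Hsd17b7 was called lower, at -0.51 (adjusted p 0.0335), beside -0.38 (adjusted p 0.169) in the main fit. Of 10 genes of SREBP processing and feedback, and of 5 other SREBP2 targets, 0 were called in the fit without the block. With the slide as a block, Srebf2 (adjusted p 0.0159) was the 1 processing gene called.

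**Figure D3:**
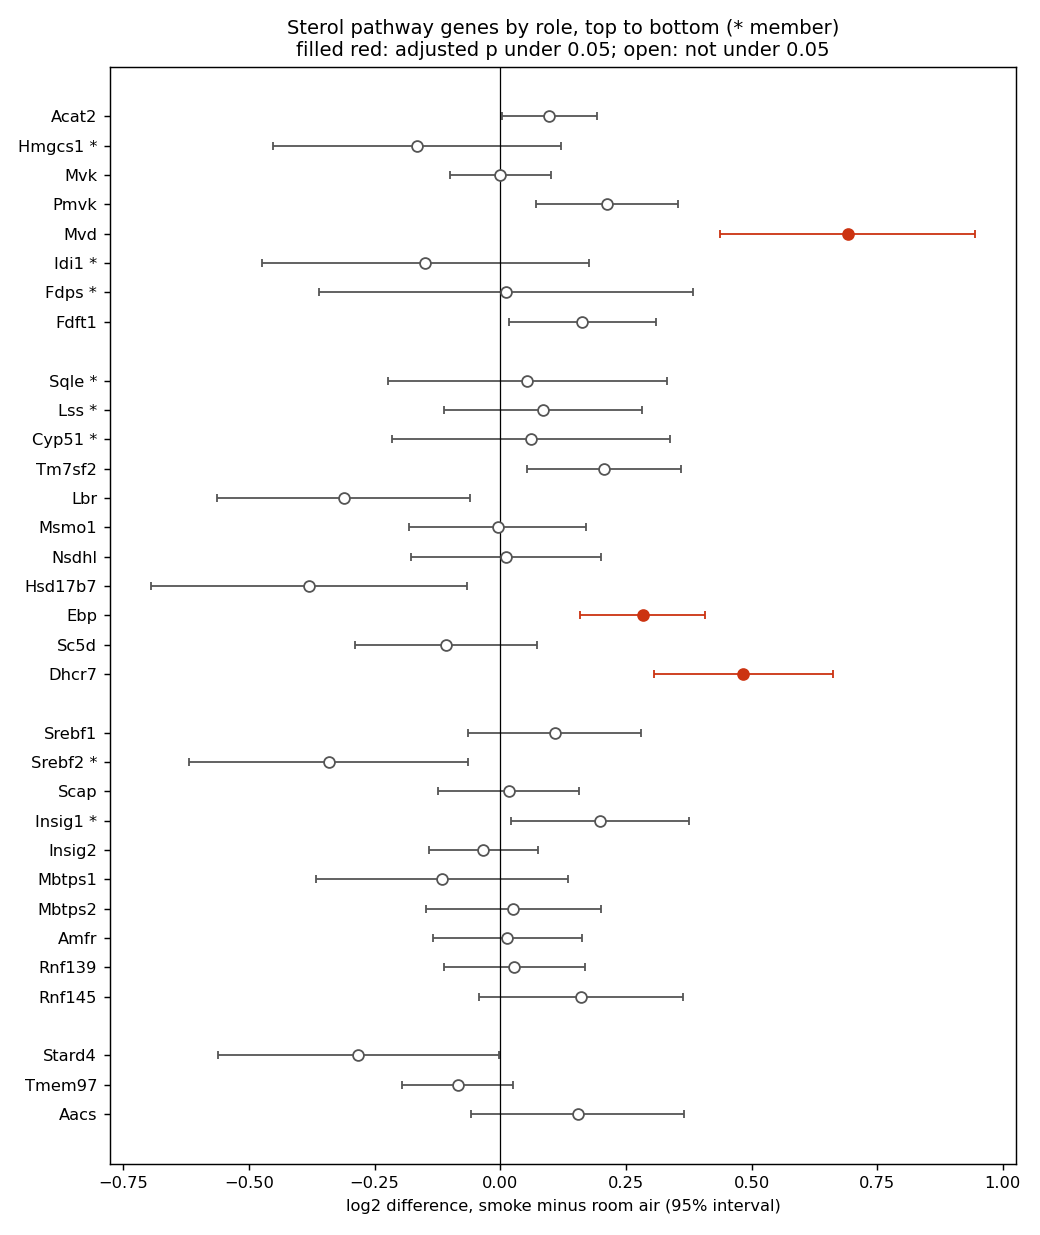
Points are log2 differences, smoke minus room air, with 95% intervals, for genes from acetyl units to squalene, from squalene to cholesterol, of SREBP processing, and other targets, as far as reported here. Mvd, Ebp and Dhcr7 (filled) were called, and the members (starred) were not.

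Of 6 genes of the isoprenoid branches, Nus1 rose by 0.44 (adjusted p 0.0170; its dimmer probe gave 0.15, adjusted p 0.369) and Coq2 fell by 0.31 (adjusted p 0.0105). Of 14 genes listed for fatty acid synthesis or as SREBP1 targets, 3 rose. These were Fasn, the fatty acid synthase, by 0.53, Gpam by 0.28 and Lpin1 by 0.21. Of 10 genes of sterol sensing, export, oxidation and esterification, 5 rose and 0 fell, with a median of 0.31. These were the exporters Abca1 (0.48) and Abcg1 (0.84), the esterifying enzyme Soat1 (0.73) and the hydroxylases Ch25h (3.45) and Cyp7b1 (0.90). The less bright probes of Soat1 gave -0.06, 0.32 and 0.46. With the red processed signal alone, scaled to the 75th percentile, 5 of the 13 called pathway genes were called, and Dhcr7, Ebp, Nus1, Coq2, Fasn, Gpam, Lpin1 and Cyp7b1 were not. Their differences there kept their sign and were of similar or larger size, at 0.51 for Dhcr7, 0.28 for Ebp, 0.47 for Nus1, -0.33 for Coq2, 0.52 for Fasn, 0.44 for Gpam, 0.22 for Lpin1 and 1.12 for Cyp7b1. With median centring in place of loess, Ebp (0.21), Nus1 (0.33), Coq2 (-0.42), Gpam (0.21), Lpin1 (0.10) and Cyp7b1 (0.85) were no longer called. Lpin1 and Cyp7b1 also lost their call in most fits that left out 1 lung.

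Ch25h read 4.51 in room air replicate 1 and 0.53, 0.45, 0.24 and 0.45 in the other room air lungs, beside 4.57, 4.87, 4.86, 4.44 and 4.70 with smoke. Cyp7b1 read 4.50 in room air replicate 1, 3.22, 3.07, 3.22 and 3.03 in the others, and 4.30, 4.26, 4.42, 4.15 and 4.41 with smoke. Room air replicate 1 was thus at the level of the smoke lungs for both genes. With all 10 lungs the adjusted p from limma was 0.0113 for Ch25h and 0.0448 for Cyp7b1. Without room air replicate 1 the Ch25h difference was 4.27 (adjusted p 3.15e-09 from limma) and the Cyp7b1 difference 1.17 (adjusted p 1.91e-06). That lung was picked out here by these same values, so a smaller p without it follows from the choice. Over all pathway lists, 12 of 66 genes rose and 1 fell, beside 7.76% and 5.15% of genes well above background. Without room air replicate 1, 14 rose and 1 fell, with Aacs and Scd1 added. Leaving out that lung also raised the count over all probes, from 2906 (1793 higher) to 3660 (2211 higher).

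Marker lists of lung cell types were read beside these genes. Of all genes well above background, 7.76% were called higher and 5.15% lower. Of 9 macrophage markers 8 rose, with a median of 1.39. Their summed level, in units of the 75th percentile of each array, was 50.03, 50.6, 48.4, 45.0 and 49.3 in room air and 208, 223, 205, 189 and 232 with smoke, and Chil3 was the brightest. This sum is mostly Chil3, and in it room air replicate 1 lay within its group. Single markers differed from it in that lung: the log2 ratio of Marco was 4.86, beside 2.49 to 3.32 in the other room air lungs, and that of Msr1 was -0.05, beside -1.56 to -1.08. Both lay below the smoke lungs, at 4.97 to 6.13 for Marco and 0.86 to 1.15 for Msr1. In the same lung Cd68 was -1.16 (others -1.41 to -1.18), Adgre1 -0.16 (others -0.14 to 0.14) and Itgax 2.81 (others 2.57 to 2.75). Of 3 markers of dividing cells 3 rose, brightest Mki67, with sums of 1.25, 1.29, 1.30, 1.57 and 1.38 in room air and 3.89, 3.65, 4.41, 4.60 and 3.70 with smoke.

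Of 4 fibroblast markers 3 fell (brightest Dcn, and Tcf21 not called in most fits that left out 1 lung), of 5 endothelial markers 1 fell (Cldn5 brightest, Pecam1 called, though not in most fits that left out 1 lung), and of 4 adipocyte markers 1 fell, Cidec, also the brightest, at -1.02. Cidec was no longer called with an offset of 16 (-0.93), with scaling between arrays (-0.81) or with the scanner log ratio (-0.36). With median centring Csf1r (0.48), Pecam1 (-0.54) and Tcf21 (-0.48) were no longer called. The ratio of the smoke mean to the room air mean of the sums was 0.797 for fibroblast, 0.669 for endothelial and 0.453 for adipocyte markers. It was 0.654 for cardiac muscle, 0.780 for alveolar type 1 and 1.502 for erythroid markers, lists with 0 called. The sums rest on red signal alone and on the brightest genes, and Cldn5, the brightest endothelial marker, had a log2 ratio difference of -0.12 (adjusted p 0.654 from limma). Of 6 neutrophil markers measured 0 were called, and the sum was 201 in room air replicate 1 and from 30.2 to 50.3 in the other room air lungs, beside 50.9 to 94.6 with smoke. For alveolar type 2 (7 markers, brightest Sftpc), alveolar type 1 (5, Hopx), club (3, Scgb1a1), ciliated (5, Tekt1), B cell (4, Cd79b), T and NK cell (4, Cd3d), cardiac muscle (4, Myl7) and erythroid (3, Hba-a1) lists, 0 were called. With the slide as a block, 1 alveolar type 2 marker and 2 T and NK cell markers were called higher, and 1 alveolar type 1 and 1 cardiac muscle marker lower. No list had all its markers near background. In whole lung, fewer cells of a type and less RNA per cell cannot be told apart, and the part of these cell types in the pathway values was not tested.

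**Figure D4:**
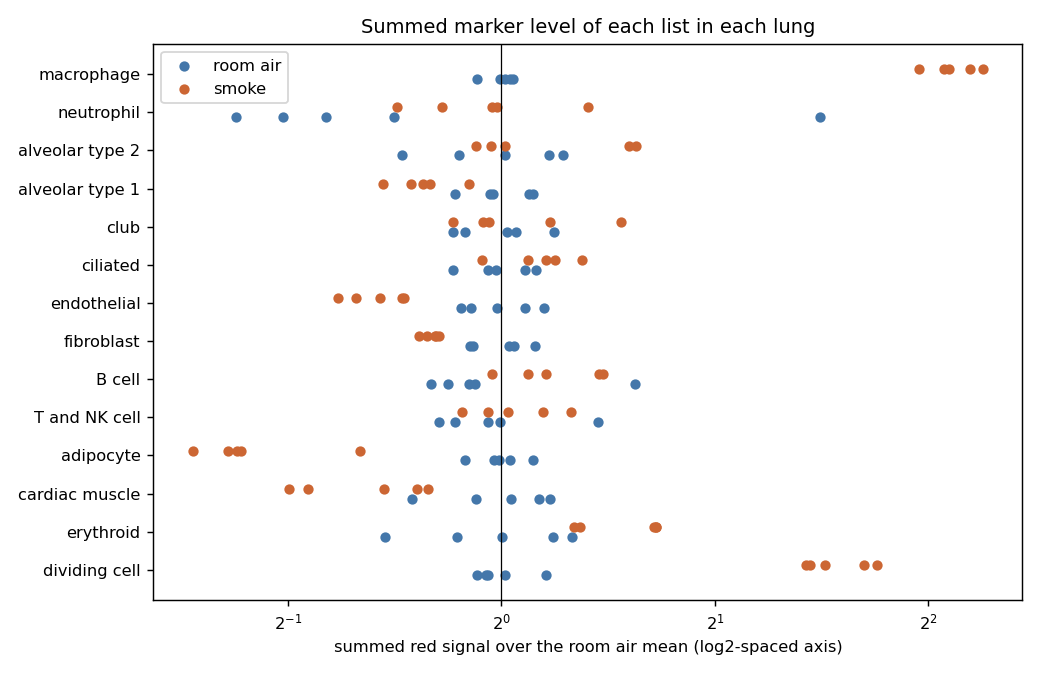
Each point is the summed red signal of a marker list in 1 lung, divided by the room air mean of that list, on a log2-spaced axis. Macrophage, dividing cell and erythroid sums lie higher in all 5 smoke lungs, and adipocyte, endothelial and fibroblast sums lie lower in all 5. The neutrophil sum of room air replicate 1 lies apart from its group.

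The promoters of the members were searched for motifs linked to sterol-responsive genes. RefSeq (GRCm38.p6) sequences were at hand for 6 of 8 members, Hmgcs1, Idi1, Lss, Cyp51, Insig1 and Srebf2, and not for Sqle and Fdps. In the 250 bases before the start, on both strands, TCACNCCAC was found in 1 of 6 (1.05% of 32851 promoters), CCAAT in 6 of 6 (33.8%), CACGTG in 1 of 6 (6.02%) and GGGCGG in 6 of 6 (32.7%). Those of Hmgcs1 (chr13:119690101-119690350, plus strand), which holds TCACNCCAC from 137 to 129 bases before the start, of Insig1 (chr5:28071162-28071411, plus strand), which holds CACGTG, and of Srebf2 (chr15:82147019-82147268, plus strand), the member called under the block, are shown 5′ to 3′ with matches on either strand in capitals. A match is a description of the letters and not a binding site.
Hmgcs1: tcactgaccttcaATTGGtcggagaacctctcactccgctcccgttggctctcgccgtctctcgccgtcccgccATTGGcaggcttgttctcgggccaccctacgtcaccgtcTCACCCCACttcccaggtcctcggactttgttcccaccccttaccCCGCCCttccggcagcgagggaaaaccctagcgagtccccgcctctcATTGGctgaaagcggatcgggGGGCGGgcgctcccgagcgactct
Insig1: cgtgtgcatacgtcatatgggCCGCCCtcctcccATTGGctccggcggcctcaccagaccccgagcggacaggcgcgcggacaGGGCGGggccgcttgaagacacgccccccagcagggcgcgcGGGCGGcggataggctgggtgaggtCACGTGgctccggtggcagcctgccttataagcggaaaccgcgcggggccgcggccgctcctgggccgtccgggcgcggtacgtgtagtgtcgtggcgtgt
Srebf2: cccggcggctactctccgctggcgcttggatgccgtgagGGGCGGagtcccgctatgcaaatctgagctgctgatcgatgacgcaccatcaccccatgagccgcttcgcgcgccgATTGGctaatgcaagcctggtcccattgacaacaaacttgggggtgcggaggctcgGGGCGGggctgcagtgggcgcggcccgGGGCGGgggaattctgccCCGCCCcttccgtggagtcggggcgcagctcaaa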

How the data were processed

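Whole lung RNA of 10 mice was read on 10 arrays on 5 slides. Per the file headers, the deposited scanner files hold intensity values from Agilent Feature Extraction 9.5.3.1 and its log10 ratio, while the submitters' processing notes name version 9.1. The deposited log2 table of the authors was used as an alternative only. Each of its 10 columns matched best the array of the same number in the other group (0 of 10 its own), with column medians from 7.32 to 8.03, and its scale and centring remain unknown. Which of the sources has the groups exchanged cannot be told from these files, and directions here follow the scanner files as assigned to samples.

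Mean signals were corrected with normexp (offset 50), control spots left out, and ratios normalised by loess within each array. Spots with outlier marks were left out and spots of a probe averaged. Tests used limma 3.58.1 in R 4.3.3 with Benjamini-Hochberg adjustment over 41173 probes. Names came from RefSeq accessions for 22951 of 41174 probes, from current symbols for 6659, from synonyms for 3109, and otherwise from the files. The members and lists were chosen with earlier results of these data known. Named were all members, pathway and marker genes past the threshold, the brightest marker of each list, and 5 genes by likeness. Aacs, Scd1 and Siglecf were named after their values were seen. Some genes that the rule names or the lists hold are not reported here by name, though counts over the lists include them.

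Deviations of same-numbered lungs from their group means correlated at 0.157, 0.461, 0.460, 0.550 and 0.415, all above 0.1, so the slide was taken to pair the lungs. The pairing is weakest for slide 1, where the smoke lung correlated higher, at 0.205, with a room air lung of another number. With the slide as a block, 1 member was called in place of 0. On each array the median red spot was 1.69 to 2.83 times its local background, and with 5 arrays per group precision is limited. The fit was tested on simulated data. Alternatives were the test, the block, filters, background correction, normalisation, single channels, the authors' table, the mean of probes, a stricter threshold and leaving out each lung.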

Additional observations from a re-analysis of the deposited data

Results flagged for a closer look

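In 70 groups of 5 lungs (21 genes and 14 marker sums in each group) the gap of the highest or lowest lung to its neighbour was compared with the range, and a lung stood apart in 10 of them. These fell on 4 lungs. Chance gives about 1 in 20 for normal values. The 70 groups come from the same 10 lungs and are not independent, so this rate is only a rough guide. Room air replicate 1 was high for Hmgcs1 (0.52, next -0.0021), Ch25h (4.51, next 0.53), Cyp7b1 (4.50, next 3.22) and the log2 neutrophil marker sum (7.65, next 5.65). Replicate 2 was low for Fdps in room air (-1.05) and for Srebf2 with smoke (-1.03), and smoke replicate 2 was high for Dhcr7 (0.24) and low for Lpin1 (0.25). Room air replicate 5 was high for Ebp (0.80) and for the log2 B cell marker sum (3.23). The causes were not tested.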

How the results depend on the processing

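The count of members called was 0 in every setting run except with the slide as a replicate block, where it was 1 (Srebf2, adjusted p 0.0159), and the block ended no call of a named pathway gene. Leaving out each lung gave 0 to 0 members, a member median from -0.057 to 0.09, 11 to 15 pathway genes and 14 to 16 marker genes called. The pathway count of 13 fell to 0 with the exact Wilcoxon test, 5 with red scaled to the 75th percentile, 0 in the authors' table and 6 at an adjusted p under 0.01, and was 9 with median centring (7 higher and 2 lower, the 2 lower not called in the main fit). The marker count of 16 became 0 with the exact Wilcoxon test and 1 in the authors' table. The Wilcoxon test called 0 of all probes, with 5446 at an unadjusted p under 0.05. Over all probes the count of 2906 (1793 higher) became 5019 (2792) with the block, 1434 (687) with median centring, 1759 (1142) with red scaled to the 75th percentile, 1428 (1008) at the stricter threshold and 13 (0) in the authors' table.

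The member median of 0.03 was -0.068 with median centring, -0.0067 with loess and scaling between arrays and -0.037 when probes of a gene were averaged. Signs of single genes turned in these cases, and the cause was not tested unless named. Median centring in place of loess gave Sqle -0.043, Fdps -0.090, Lss -0.022, Cyp51 -0.046. Loess and scaling between arrays gave Fdps -0.014. Scanner log ratio of processed signals gave Tcf21 0.0082. Red processed signal scaled to the 75th percentile gave Fdps -0.047. Red channel with normexp and quantile normalization gave Fdps -0.048. Mean of all probes of a gene gave Fdps -0.17. Leaving out each lung gave Fdps from -0.12 to 0.15, Sqle from -0.028 to 0.16, Cyp51 from -0.024 to 0.13. In the authors' table, whose columns match arrays of the other group, the log2 differences were Hmgcs1 0.12, Idi1 0.14, Lss -0.0015, Insig1 -0.042, Srebf2 0.20, Mvd -0.34, Ebp -0.044, Dhcr7 -0.14, Nus1 -0.13, Coq2 0.27, Fasn -0.15, Gpam -0.069, Lpin1 -0.011, Abca1 -0.16, Abcg1 -0.35, Ch25h -1.94, Cyp7b1 -0.23, Soat1 -0.27, Marco -2.58, Mrc1 -1.29, Cd68 -1.09, Adgre1 -0.62, Itgax -1.49, Chil3 -0.93, Msr1 -1.27, Csf1r -0.30, Pecam1 0.70, Pdgfra 0.29, Dcn 0.32, Tcf21 0.95, Cidec 0.91, Mki67 -0.68, Top2a -0.52, Ccnb1 -0.78. Cyp7b1 was no longer called without any 1 lung other than room air replicate 1. With arrays at 1.69 to 2.83 times the background, small differences of dim probes are limited.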
